A study of Arabidopsis thaliana with 12 samples.

Results

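The late embryogenesis abundant (LEA) family of Arabidopsis thaliana was followed through 49 listed genes, covering all LEA classes except the cold-induced pair COR15A and COR15B, of 27444 protein-coding genes on chromosomes 1 to 5. The members were found by the position of their loci in the deposited tables and fall into 9 classes. By where each gene is generally described as expressed, 26 were taken as seed members, 13 as vegetative members (present in growing shoots and roots or induced there by cold or drought), 4 as members of both seed and stress, and 6 were not assigned to a set.

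RNA was sequenced from whole seedlings of 4 genotypes, with 3 libraries each: the double mutant val1 val2, the val1 single mutant, the val2 single mutant, and wild type (WT). VAL1 and VAL2 encode B3-domain transcriptional repressors. All seedlings were 14 days old and grew, after 3 days of stratification at 4 °C, at 22 °C with 16 h of light on medium with 1% sucrose. The labels number the replicates and name neither the alleles nor whether each replicate came from its own plants, so p-values measure only the spread between these libraries, which may be technical. Values are FPKM, fragments scaled by transcript length and by the size of the library, and so are levels per length.

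LEA proteins are small, very hydrophilic proteins, many of them without a fixed fold in solution, that accumulate in embryos as seeds mature and dry. They are known for protecting proteins and membranes when water is lost. Dehydrins, one of the classes, include seed members as well as members that seedlings make in cold, drought or in answer to the hormone abscisic acid (ABA). Seed members are normally switched off after germination, and VAL repressors are known for silencing the seed maturation program in seedlings.

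The libraries listed 19164 to 20293 loci each, without read counts, so depth is unknown. The 10 most abundant loci held 10.9 to 14.8% of the FPKM in val1 val2 libraries, against 5.51 to 7.75% in the other 9 libraries. VAL1 stood at 11.1 to 22.6 FPKM in val1 val2, at 5.07 to 12.7 in val1 and at 14.5 to 17.7 in WT, and VAL2 at 12.6 to 13.2 in val1 val2, at 9.73 to 11.3 in val2 and at 17.7 to 22.0 in WT. The locus over VAL1 was unbroken in val1 replicate 1 and val1 val2 replicate 3, as in WT, and broken or partial in the remaining 4 libraries of val1 and val1 val2. Over VAL2 it was unbroken in val2 replicate 1 and val1 val2 replicates 2 and 3, and broken or partial in the other 3 libraries of these genotypes. Whether these libraries fit their labels was not tested. Of all genes tested, 24.4% were called higher and 34.3% lower in val1 val2 than in WT. Of the markers checked, 8 of 8 green tissue genes were called lower in val1 val2 than in WT. Their summed levels were 2434 to 6733 FPKM in val1 val2 and 11569 to 13506 FPKM in WT. The 8 root markers summed to 75.9 to 86.9 FPKM in val1 val2, where 2 were called higher and 6 lower, and to 153 to 162 FPKM in WT. Of 10 seed genes outside the family, such as oleosins and storage globulins, 10 were called higher in val1 val2 than in WT, 6 in val1 and 3 in val2. Of all genes tested, 2.18% were called higher in val1 and 4.46% in either direction in val2. In val1 val2 4 of the 10 had to differ, having passed the filter on low values through val1 val2 alone. Of the other 6, only HSFA9 was listed above 0 in WT. TIP3;2, OLEO2, OLEO1, CRA1 and CRC passed through mutant genotypes alone, so their calls against WT describe presence more than they test it.

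In val1 val2 seedlings, transcripts of the seed members were present at levels not seen in the other genotypes, while the most abundant vegetative dehydrins stood below WT. A seed member locus was assembled in at least 1 val1 val2 library for 23 of 26 seed members and in every val1 val2 library for 17, against 5 seed members in any val1 library, 2 in any val2 library and 2 in any WT library. Summed over the 23 seed members with a value in all 12 libraries, the level was 2073, 1445 and 1150 FPKM in val1 val2 replicates 1, 2 and 3. The same sum was 11.9 to 12.5 FPKM in val1, 0 to 2.51 FPKM in val2 and 0 to 1.56 FPKM in WT. Every val1 val2 library was thus far above every other library.

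**Figure D1:**
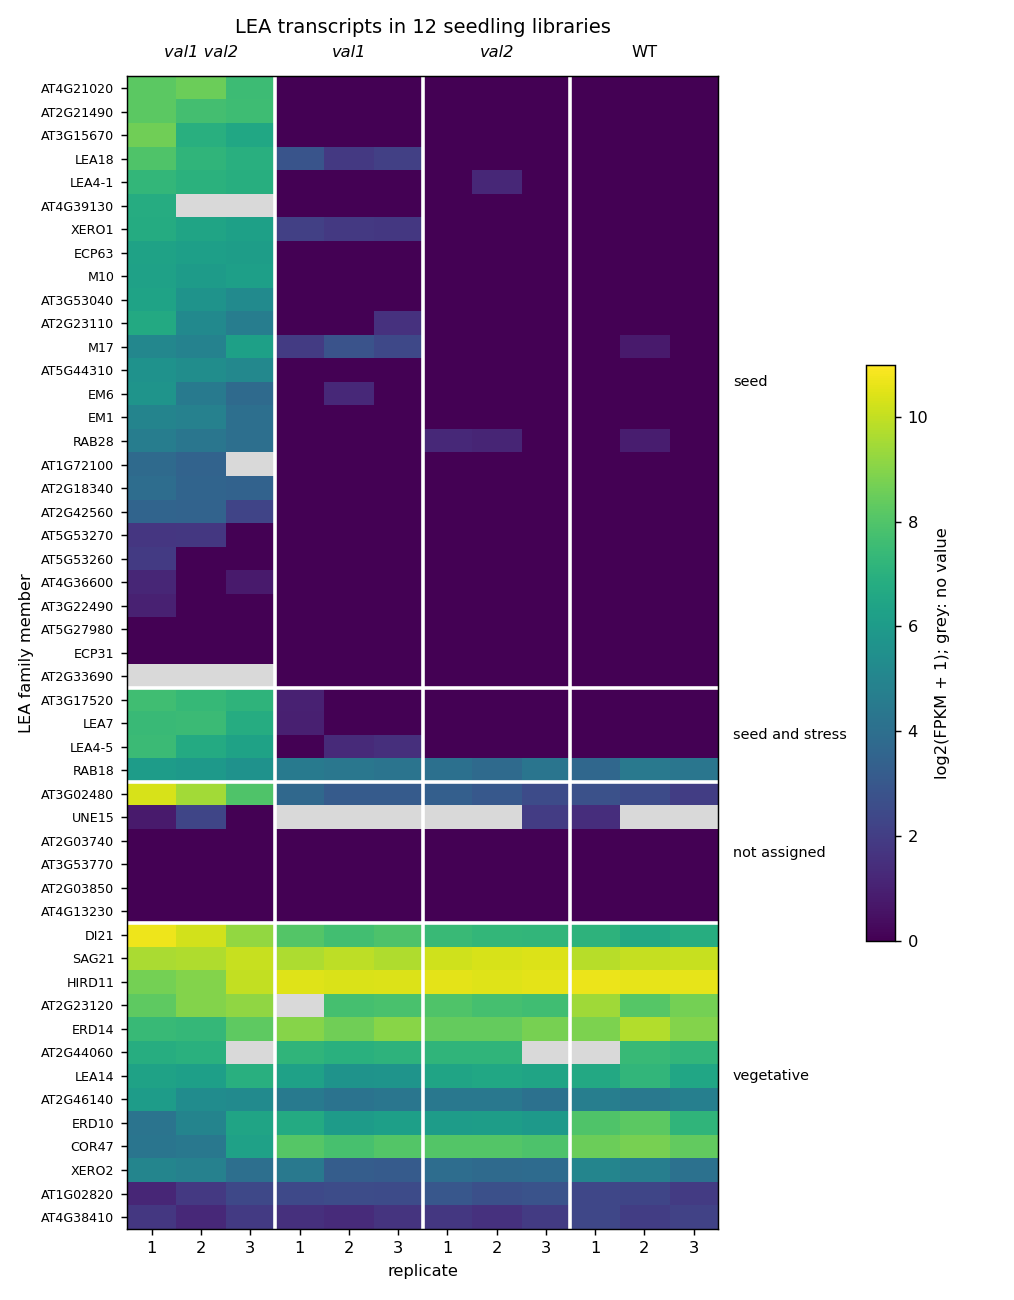
Level of the 49 LEA members (rows, grouped by set) in 12 libraries (columns, 3 per genotype), as log2(FPKM + 1), with grey where no value could be given to the gene. Most seed members are dark in val1, val2 and WT and lit in val1 val2, and vegetative members are lit in all 4 genotypes.

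The most abundant seed members in val1 val2 came from several classes. AT4G21020, a member of the LEA_4 class, stood at 303, 373 and 184 FPKM in val1 val2 and had no locus in any other library. AT2G21490, a dehydrin (chromosome 2, 9206090 to 9207117 in val1 val2 replicate 1, TAIR10), stood at 300, 207 and 190 FPKM in val1 val2 and likewise had no locus elsewhere. AT3G15670, another LEA_4 gene, stood at 394, 122 and 92.2 FPKM in val1 val2 and was listed at 0 in the other 9 libraries. For AT3G15670 the first val1 val2 library was well above the other two. The interval that the authors' files give for the locus of AT4G21020 in replicate 1 ran from 0 to 255447 FPKM and that of AT2G21490 in replicate 2 from 0 to 97980, so these 2 values were poorly determined in the authors' estimate. Such an interval, with an upper bound over 10 times the value, occurred at 6 of 275 member loci.

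The LEA_1 class, small proteins of desiccating embryos, was represented by all of its 3 members. LEA18 (LEA4-2) stood at 252, 147 and 120 FPKM in val1 val2, at 6.30, 2.50 and 3.24 in val1, and was listed at 0 in val2 and WT. LEA4-1 stood at 155, 127 and 119 FPKM in val1 val2, with 1 locus of 1.33 FPKM in a val2 library and none in val1 or WT. LEA4-5, which is also made in vegetative tissue under drought and was counted as seed and stress, stood at 181, 106 and 80.3 FPKM in val1 val2, at 0, 1.48 and 1.82 in val1, and was listed at 0 in val2 and WT. In each of these genes the lowest val1 val2 library was far above all others.

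The EM proteins of the LEA_5 class, known for their abundance in dry seeds, were lower than those of LEA_1. EM6 stood at 51.1, 21.2 and 12.9 FPKM in val1 val2, at 0, 1.39 and 0 in val1, and was listed at 0 in val2 and WT. EM1 stood at 30.5, 27.4 and 15.1 FPKM in val1 val2 and was listed at 0 in the 9 other libraries. The pair M10 and M17, seed genes of a small class of their own (AtM), differed in the order of the val1 val2 libraries: M10 stood at 77.9, 64.3 and 73.1 FPKM and M17 at 32.7, 28.7 and 75.0 FPKM in val1 val2. M17 was the seed member with the highest ratio of val1 val2 replicate 3 to the mean of replicates 1 and 2, at 2.44, whereas 15 of the 17 seed members with a locus in all 3 val1 val2 libraries were lowest in replicate 3, with a median ratio of 0.69.

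Within the class of seed maturation proteins (SMP) a single member passed the filter. RAB28, an ABA-responsive gene of embryos, stood at 24.5, 19.1 and 15.0 FPKM in val1 val2, at 1.44, 1.18 and 0 in val2 and at 0, 0.827 and 0 in WT. The 5 other SMP members did not reach that level: ECP31 and AT5G27980 had no locus in any library, AT3G22490 and AT5G53260 had a locus only in val1 val2 replicate 1 (1.01 and 2.64 FPKM), and AT5G53270 only in val1 val2 replicates 1 and 2 (2.30 and 2.43 FPKM). Of the 16 LEA_4 members, 13 had a value above 0 in val1 val2, among them ECP63, an embryonic cell protein, at 79.2, 72.9 and 69.3 FPKM, AT2G42560 at 10.5, 10.2 and 3.82 FPKM and AT4G36600 at 1.24, 0 and 0.747 FPKM. The classes of seed members were therefore not represented evenly in val1 val2 seedlings.

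The 4 members known from both seeds and stressed plants were present in every val1 val2 library, and 3 of them, LEA4-5, LEA7 and AT3G17520, passed the filter on low values through val1 val2 alone, so that only RAB18 gives a test. LEA7 stood at 172, 179 and 111 FPKM and AT3G17520 at 196, 162 and 142 FPKM in val1 val2, with 0.972 and 0.990 FPKM in val1 replicate 1 and no locus in the other val1 libraries, val2 or WT. RAB18, an ABA-induced dehydrin, was the member of this set with a clear level in WT: it stood at 67.1, 61.3 and 48.0 FPKM in val1 val2, at 21.7, 19.5 and 17.7 in val1, at 15.8, 12.9 and 18.3 in val2 and at 11.7, 21.0 and 18.8 in WT. All val1 val2 libraries lay above all others, and the log2 change of FPKM + 1 against WT was 1.74 by limma's test (SE 0.21, adjusted p = 5.06e-05).

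Among members with a locus in every WT library, the change of AT3G02480 was the highest; it is a LEA_4 gene not assigned to a set. It stood at 1288, 709 and 249 FPKM in val1 val2 (chromosome 3, 512312 to 512962 in replicate 1, TAIR10), at 12.3, 8.01 and 7.90 in val1, at 9.15, 7.27 and 4.64 in val2 and at 5.60, 4.79 and 2.98 in WT. The lowest val1 val2 library was above every other library, although the 3 val1 val2 values spread widely. The log2 change was 6.84 in val1 val2 against WT (SE 0.49, adjusted p = 1.05e-06) and 7.49 without val1 val2 replicate 3, and the changes in val1 and val2 against WT did not pass (0.94, adjusted p = 0.371, and 0.55, adjusted p = 0.641).

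In all, 35 of 49 members passed the filter of at least 1 FPKM in at least 3 libraries, and 24 were called higher and 6 lower in val1 val2 than in WT at an adjusted p under 0.05, where 24.4% of all 17836 genes tested were called higher and 34.3% lower. Of the 35, 17 passed through val1 val2 alone (14 seed members and 3 seed and stress members) and had to differ, so 17 of the 24 higher calls add nothing to the levels given above. Of the 18 that passed through other genotypes as well, 7 were called higher and 6 lower. The 7 include XERO1, LEA18 and M17, which passed through val1 and val1 val2 alone and reached at most 0.728 FPKM in WT. Their calls against WT therefore add little to the levels as well. The seed members' median log2 change of 5.76 rests on the pseudocount of 1, since most are listed at 0 in WT. The vegetative members, which all passed through other genotypes as well, had 2 called higher and 6 lower of 13, with a median log2 change of -0.40 beside -0.14 for all genes tested. With median-of-ratios scaling the median of all genes was 0.03 and that of the vegetative members -0.16. Each of 25 alternative settings kept 28 to 30 of the 30 calls, and all 30 were kept without val1 replicate 1 and val1 val2 replicate 3 together. Most of this was set in advance, since 17 of the 30 had to differ and XERO1, LEA18 and M17 were at or near 0 in WT. The range therefore bears only on the remaining calls. Without the 3 libraries with unbroken VAL2 loci, an alternative chosen after seeing the data that leaves 1 val1 val2 library, assumed to vary like the others, 29 were kept, and AT4G38410 was lost (adjusted p = 0.129).

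**Figure D2:**
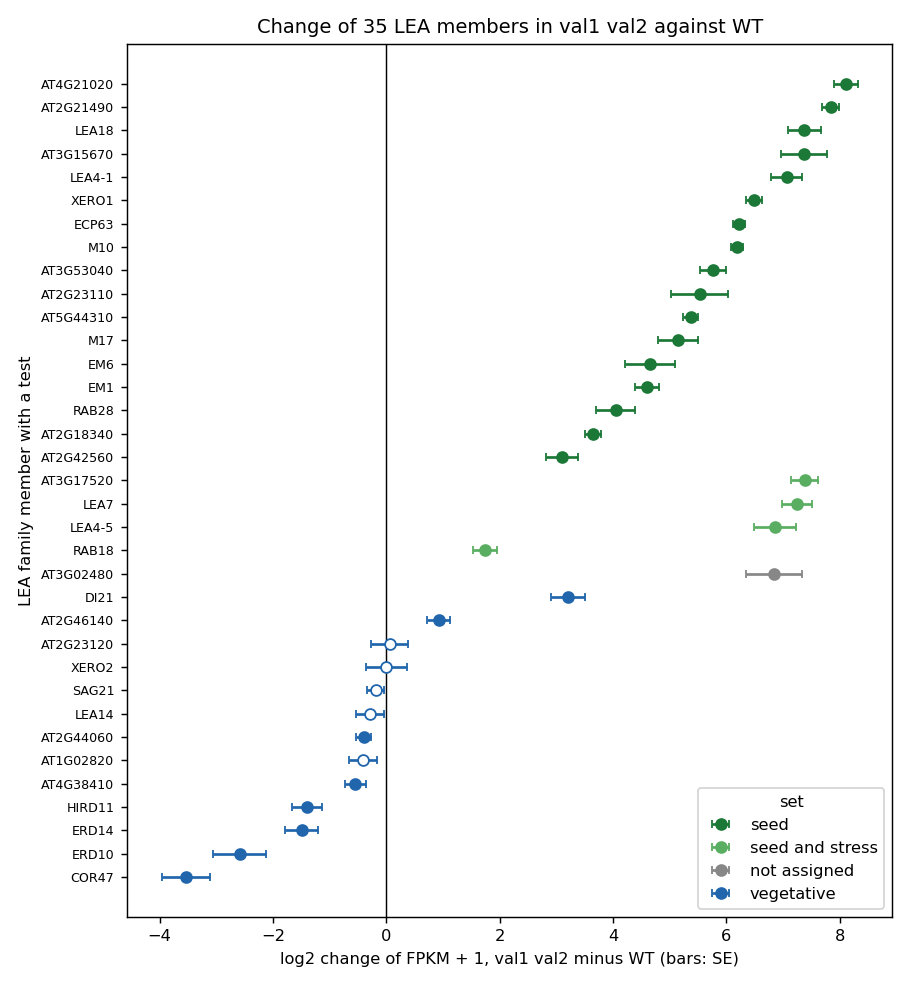
Log2 change of FPKM + 1 in val1 val2 minus WT for the 35 LEA members with a test (points, bars are SE), by set, with open points where the adjusted p was 0.05 or higher. Seed members lie right of 0, where genes listed at 0 in WT have a change that depends on the pseudocount, and COR47, ERD10, ERD14 and HIRD11 lie farthest left.

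The vegetative members that fell most in val1 val2 were dehydrins. COR47, an acidic dehydrin induced by cold, stood at 18.6, 19.9 and 77.9 FPKM in val1 val2, at 276, 222 and 266 in val1, at 262, 269 and 243 in val2 and at 366, 423 and 325 in WT. ERD10, its close relative, stood at 18.1, 30.1 and 85.2 FPKM in val1 val2, at 103, 63.9 and 73.4 in val1, at 66.8, 69.7 and 61.1 in val2 and at 251, 300 and 145 in WT. In both genes all val1 val2 values lay below all WT values, and val1 val2 replicate 3 stood several times above replicates 1 and 2. COR47 fell by 3.54 on the log2 scale (SE 0.42, adjusted p = 4.26e-05) and ERD10 by 2.59 (SE 0.46, adjusted p = 0.000713).

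ERD14 and HIRD11 completed the group. ERD14, an acidic dehydrin of drought and cold, stood at 170, 160 and 312 FPKM in val1 val2, at 517, 392 and 533 in val1, at 332, 339 and 422 in val2 and at 452, 851 and 496 in WT. HIRD11, a small histidine-rich dehydrin that binds metal ions, was the most abundant LEA transcript of WT: it stood at 417, 503 and 1026 FPKM in val1 val2, at 1402, 1330 and 1374 in val1, at 1498, 1427 and 1490 in val2 and at 1641, 1540 and 1562 in WT. Again no val1 val2 value reached WT and the third val1 val2 library was the highest of its group. The log2 change against WT was -1.49 for ERD14 (SE 0.29, adjusted p = 0.00127) and -1.40 for HIRD11 (SE 0.26, adjusted p = 0.000998). Leaving out any 1 library kept the 4 calls, with log2 changes of -4.19 to -3.19 for COR47, -3.20 to -2.11 for ERD10, -1.80 to -1.21 for ERD14 and -1.78 to -1.14 for HIRD11. In all 4 genes the lowest of these values is the one without val1 val2 replicate 3.

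**Figure D3:**
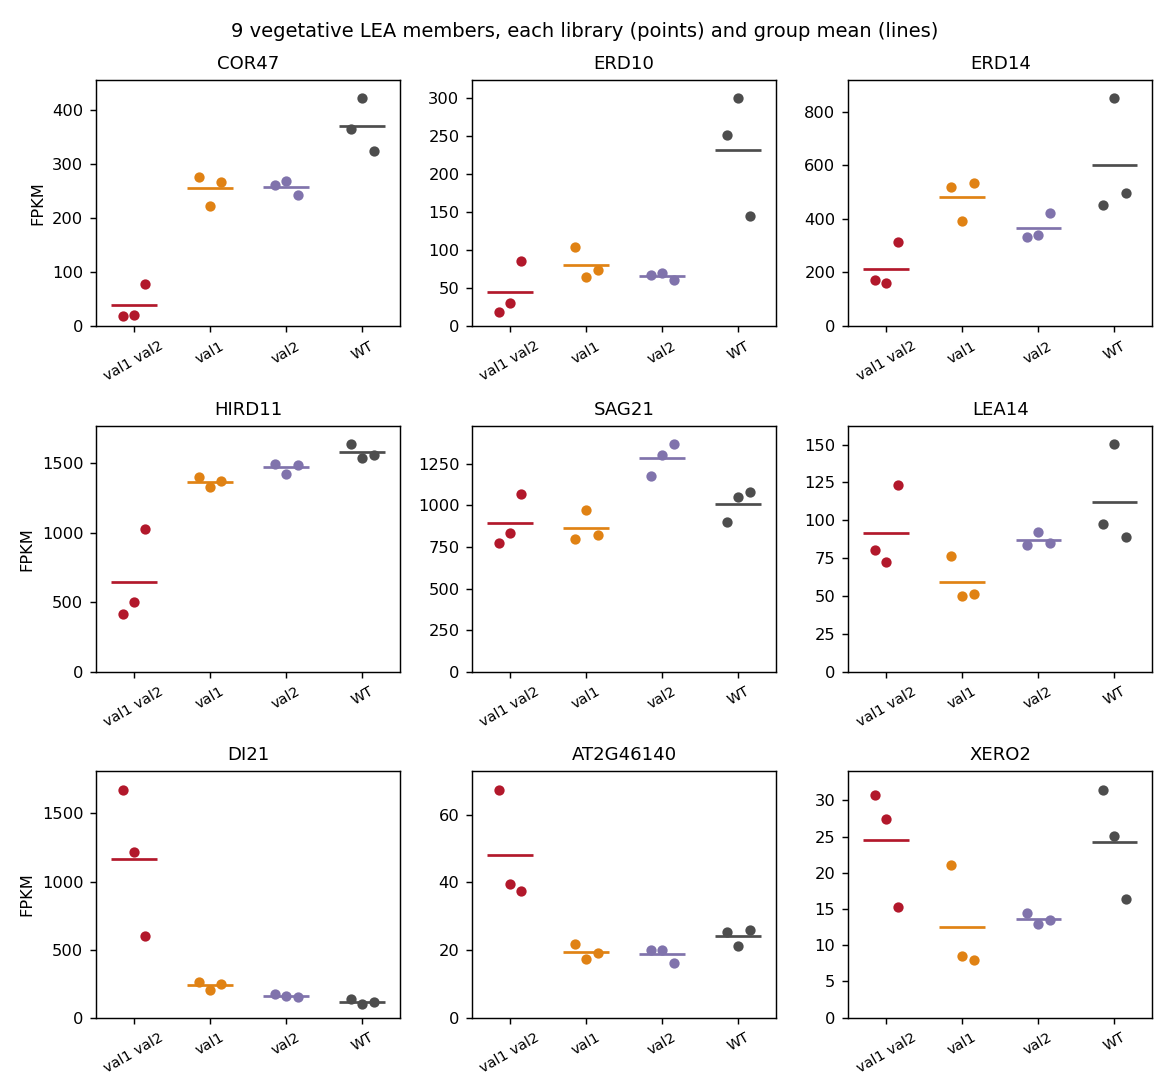
FPKM of 9 vegetative LEA members in each library (points) of val1 val2, val1, val2 and WT, with the group mean as a line. COR47, ERD10, ERD14 and HIRD11 are below WT in every val1 val2 library, DI21 and AT2G46140 are above it, and SAG21, LEA14 and XERO2 overlap with it.

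The 2 remaining calls below WT were small. AT4G38410, a dehydrin of low level, stood at 2.41, 1.41 and 2.64 FPKM in val1 val2 and at 4.11, 3.00 and 3.54 in WT, with a log2 change of -0.54 (adjusted p = 0.0237). That call was lost without WT replicate 1, WT replicate 3 or val1 val2 replicate 2 (adjusted p up to 0.0861, and 0.00277 to 0.0905 over its alternatives). AT2G44060, of the LEA_2 class, stood at 115 and 126 FPKM in val1 val2 and at 170 and 149 in WT, with no value in val1 val2 replicate 3 or WT replicate 1, and its log2 change of -0.40 (adjusted p = 0.0366) was lost without WT replicate 2, val1 replicate 3, val2 replicates 1 or 2, or val1 val2 replicates 1 or 2 (adjusted p up to 0.178, and 0.0164 to 0.321 over its alternatives). Both also failed to pass with median-of-ratios scaling.

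Other vegetative members went the opposite way or did not pass. DI21, a drought-induced gene of the LEA_3 class, stood at 1676, 1219 and 598 FPKM in val1 val2, at 263, 203 and 243 in val1, at 175, 157 and 150 in val2 and at 137, 97.4 and 113 in WT (chromosome 4, 9028251 to 9029333 in val1 val2 replicate 1, TAIR10). Every val1 val2 library was above every other library, with a log2 change of 3.21 (SE 0.31, adjusted p = 8.72e-06). By its mean it was the most abundant LEA transcript of val1 val2, although SAG21 and HIRD11 were above it in replicate 3. AT2G46140, of the LEA_2 class, stood at 67.5, 39.4 and 37.6 FPKM in val1 val2 and at 25.3, 21.1 and 25.8 in WT, a log2 change of 0.92 (SE 0.21, adjusted p = 0.00277).

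The 5 vegetative members that did not pass had log2 changes of -0.41 to 0.06. SAG21, a mitochondrial LEA_3 protein linked to senescence and oxidative stress, stood at 775, 832 and 1066 FPKM in val1 val2 and at 901, 1047 and 1077 in WT (log2 change -0.19, adjusted p = 0.315). LEA14, a LEA_2 gene, stood at 80.3, 72.4 and 123 FPKM in val1 val2 and at 97.6, 151 and 88.8 in WT (-0.29, adjusted p = 0.345). XERO2, a cold-induced dehydrin also called LTI30, stood at 30.8, 27.4 and 15.2 FPKM in val1 val2 and at 31.5, 25.1 and 16.3 in WT (adjusted p = 1). The values of val1 val2 and WT overlapped in each of these genes. AT2G23120 overlapped as well, at 311, 491 and 569 FPKM in val1 val2 and 692, 270 and 412 in WT, and its level is uncertain because another annotated gene overlaps it. AT1G02820, a LEA_3 gene, stood at 1.28, 2.51 and 4.17 FPKM in val1 val2 and 4.13, 3.99 and 2.82 in WT (-0.41, adjusted p = 0.177), and passed without val1 val2 replicate 3 (adjusted p = 0.0117, with 0.0117 to 0.648 over its alternatives) and without the 3 libraries with unbroken VAL2 loci (adjusted p = 0.00353).

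Summed over the 11 vegetative members with a value in all libraries, the level was 3257, 2907 and 3347 FPKM in val1 val2, 3264 to 3486 in val1, 3636 to 3859 in val2 and 3856 to 4463 in WT. The val1 val2 sums lay below all WT sums, while those of val1 and val1 val2 overlapped. Beside this, the libraries with the lowest dehydrin levels, val1 val2 replicates 1 and 2, had 14.8 and 14.8% of their FPKM in the 10 most abundant loci and replicate 3 had 10.9%. In whole seedlings fewer cells of a type and less RNA per cell cannot be told apart, and the part that the green tissue markers and the most abundant loci have in these values was not tested.

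Calls against WT in the single mutants rest mainly on 18 members. The other 17 passed the filter through val1 val2 alone, stood at or near 0 FPKM in val1, val2 and WT, and had little room to differ. In val1, 10 of 35 members had an unadjusted p under 0.05 by limma, as had 3109 of all 17836 genes tested. After adjustment 3 were called higher and 0 lower, where 2.18% of all genes were called higher and 1.74% lower. The count was 5 without val1 replicate 1, 8 without val1 val2 replicate 3 and 6 without the 3 libraries with unbroken VAL2 loci. All 3 were seed members: XERO1, a dehydrin, LEA18 and M17. They passed the filter through val1 and val1 val2 alone, so their calls against WT describe presence more than they test it. XERO1 stood at 108, 85.8 and 75.4 FPKM in val1 val2, at 3.29, 2.55 and 2.42 in val1 and was listed at 0 in val2 and WT. M17 stood at 2.76, 6.05 and 4.23 FPKM in val1 and at 0, 0.728 and 0 in WT. Each val1 library was above each WT library in the 3 genes.

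On the log2(FPKM + 1) scale the changes in val1 were 1.90 for XERO1 (adjusted p = 3.30e-05), 2.25 for LEA18 (adjusted p = 0.00143) and 2.11 for M17 (adjusted p = 0.00797). With a pseudocount of 5 the calls of LEA18 and M17 were lost (adjusted p = 0.0778 and 0.13; over the alternatives 9.41e-06 to 0.0778 and 0.00081 to 0.13), and that of XERO1 was kept in all 25 alternatives. The interval that the authors' files give for the M17 locus in val1 replicate 3 ran from 0 to 174970 FPKM. These val1 levels were 3.06% of the val1 val2 mean for XERO1, 2.32% for LEA18 and 9.55% for M17.

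Other abundant seed members had no val1 locus at all: AT4G21020, AT2G21490, AT3G15670, LEA4-1, ECP63 and M10 were listed at 0 in the 3 val1 libraries. Of 26 seed members, 21 had no locus in any val1 library and 2 had a locus in 1 val1 library. Among 8 other seed genes that were listed at 0 in WT and had a locus in val1, such as the oleosin OLEO1 and the storage globulin CRC, the val1 level was 0.0327 to 1.55% of that in val1 val2. The lowest FPKM that each val1 library lists was 0.243 to 0.389. At the lowest of these shares the LEA members listed at 0 in val1 would lie below that level. Their 0 therefore does not show a smaller share than that of these genes. HSFA9, a heat shock factor of seeds that was also present in WT, stood at 13.5%, and EM6, with a locus in 1 val1 library, at 1.63%.

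**Figure D4:**
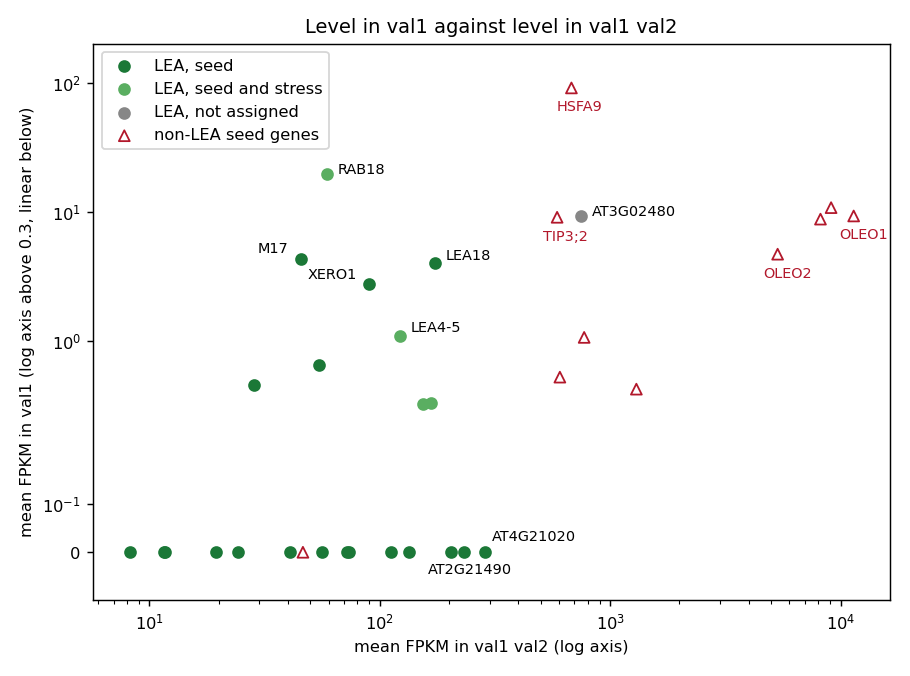
Mean FPKM in val1 (vertical, log axis above 0.3 and linear below) against mean FPKM in val1 val2 (horizontal, log axis) for LEA members outside the vegetative set with over 5 FPKM in val1 val2 (circles) and for other seed genes (triangles). LEA18, XERO1 and M17 lie above 2 FPKM in val1. AT4G21020 and AT2G21490, which are higher in val1 val2, had no val1 locus and are drawn at 0, which does not show absence.

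In val2 against WT 6 of the 35 members, all of them vegetative, had an unadjusted p under 0.05 by limma, as had 3232 of all 17836 genes tested. None of the 35 was called after adjustment, where 4.46% of all genes were called in either direction. Without val1 val2 replicate 1 the count was 1 and without val1 val2 replicate 3 it was 2. Of the 6, ERD10 had the largest difference, and its 3 values in val1 and in val2 all lay below those of WT (values above). Its log2 change was -1.74 in val2 (SE 0.46, adjusted p = 0.0634) and -1.49 in val1 (SE 0.46, adjusted p = 0.119), and neither passed. Both passed without val1 val2 replicate 3 (adjusted p = 0.00784 in val2 and 0.0173 in val1), a library that these comparisons use for nothing but the estimate of spread, and the val2 change passed without val1 val2 replicate 1. Both also passed without the 3 libraries with unbroken VAL2 loci (adjusted p = 0.0493 in val2 and 0.0458 in val1). Over all alternatives the adjusted p was 0.00293 to 0.221 in val2 and 0.00806 to 0.328 in val1. COR47 had log2 changes of -0.52 in val2 and -0.54 in val1 (adjusted p = 0.596 and 0.579), and it also passed in both without val1 val2 replicate 3 (adjusted p = 0.0283 and 0.0264; 0.0283 to 0.821 and 0.0264 to 0.797 over the alternatives).

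Other members passed in val1 only under some alternatives. AT4G38410 stood at 1.85, 1.57 and 2.17 FPKM in val1, below all WT values (-0.67, adjusted p = 0.0762; 0.025 to 0.244 over the alternatives), and passed without val1 val2 replicate 2 or 3. LEA4-5 had a log2 change of 0.94 (adjusted p = 0.221; 0.00683 to 0.602 over the alternatives) and passed without val1 replicate 1, the val1 library in which it had no locus. DI21 had a log2 change of 1.03 in val1 (adjusted p = 0.104; 0.00467 to 0.292 over the alternatives), with all val1 values above all WT values, and passed without val1 val2 replicate 1 or 3. LEA14 stood at 76.5, 49.8 and 51.5 FPKM in val1, below all WT values (-0.90, adjusted p = 0.081; 0.0194 to 0.254 over the alternatives), and passed without val1 val2 replicate 3. XERO2 stood at 21.0, 8.56 and 7.89 FPKM in val1, overlapping WT (-0.99, adjusted p = 0.188), and passed without val1 replicate 1, the highest of its group (0.0131 to 0.453 over the alternatives). Without the 3 libraries with unbroken VAL2 loci AT4G38410 and DI21 passed (adjusted p = 0.0475 and 0.0176). These differences did not pass with all libraries, which does not show that the levels were equal.

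The double mutant was also set against each single mutant. Against val1, 26 of 35 members were called higher and 4 lower, where 25.5% and 32.5% of all genes were called. Against val2, 25 were called higher and 5 lower, where 24.9% and 34.8% of all genes were called. The 17 members that passed through val1 val2 alone had to differ in both. Of the other 18 members, 9 were called higher and 4 lower against val1, and 8 higher and 5 lower against val2. The 8 include XERO1, LEA18 and M17, which passed through val1 and val1 val2 alone and were listed at 0 in val2. COR47 and HIRD11 were lower against both, by log2 changes of -3.00 and -1.19 against val1 (adjusted p = 0.000143 and 0.00278) and -3.02 and -1.29 against val2 (adjusted p = 0.000115 and 0.00155). These comparisons share the val1 val2 libraries with each other and with the comparison against WT.

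DI21 was higher by 2.18 against val1 (adjusted p = 0.000143) and by 2.73 against val2 (adjusted p = 2.45e-05), and AT2G46140 by 1.22 and 1.27 (adjusted p = 0.000478 and 0.000323). ERD10, in contrast, did not pass against either single mutant, with log2 changes of -1.10 against val1 (adjusted p = 0.0632) and -0.85 against val2 (adjusted p = 0.139), and passed against both without val1 val2 replicate 3 (0.00138 to 0.248 and 0.00342 to 0.493 over the alternatives). Weaker calls rested on single libraries. ERD14 was lower against val1 (-1.22, adjusted p = 0.00444) and val2 (-0.82, adjusted p = 0.0312), and the call against val2 was lost without any 1 val2 library or without val1 val2 replicate 1 or 2 (adjusted p up to 0.117). XERO2 was higher against val1 (0.99, adjusted p = 0.0382), lost without WT replicate 2, val1 replicate 2 or 3, any 1 val2 library, or val1 val2 replicate 1 or 2 (adjusted p up to 0.138). AT1G02820 was lower against val2 (-1.03, adjusted p = 0.00438) and val1 (-0.70, adjusted p = 0.0332), the second call being lost without any 1 val1 library or val1 val2 replicate 1 or 2 (adjusted p up to 0.109). SAG21 was lower against val2 (-0.54, adjusted p = 0.0115), which median-of-ratios scaling did not keep (adjusted p = 0.085; 0.00138 to 0.085 over the alternatives). AT2G23120 was higher against val1 (0.98, adjusted p = 0.041) and val2 (1.02, adjusted p = 0.0215), and both calls were lost without val2 replicate 2 or 3 or val1 val2 replicate 2 or 3, the first also without WT replicate 3, val1 replicate 2 or 3 or val2 replicate 1 (adjusted p up to 0.135 and 0.0732). Without the 3 libraries with unbroken VAL2 loci ERD10 passed against val1 and val2 (adjusted p = 0.00863 and 0.0187). The calls of AT2G23120 against both (adjusted p = 0.498 and 0.388), XERO2 against val1 (adjusted p = 0.0917) and ERD14 against val2 (adjusted p = 0.0561) were then lost.

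The interaction, the change in val1 val2 minus the sum of the changes in val1 and val2, asks whether losing both repressors differs from the sum of losing each. It was called higher for 27 of 35 members and lower for 3, where 21.2% and 25.3% of all genes were called. Again 17 of the 27 passed through val1 val2 alone, so that their interaction had to be positive. Of the other 18 members 10 were called higher and 3 lower. The 10 include XERO1, LEA18 and M17, which passed through val1 and val1 val2 alone. Among vegetative members 5 were higher: DI21 at 1.70 (adjusted p = 0.00838), AT2G46140 at 1.57 (adjusted p = 0.00137), AT2G23120 at 1.94 (adjusted p = 0.00919), XERO2 at 1.74 (adjusted p = 0.0184) and LEA14 at 0.94 (adjusted p = 0.0484). In XERO2, LEA14 and AT2G23120 both single mutants had lower means than WT while val1 val2 did not differ from WT by the test. COR47 at -2.48 (adjusted p = 0.00613), AT1G02820 at -1.32 (adjusted p = 0.0111) and HIRD11 at -1.09 (adjusted p = 0.0345) had negative interactions.

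Some of these interaction calls were weak. That of HIRD11 was lost on leaving out any 1 library except val1 val2 replicate 3 (adjusted p up to 0.0819), and that of LEA14 on leaving out WT replicates 1 or 2, val1 replicates 2 or 3, any 1 val2 library, or val1 val2 replicates 1 or 3 (adjusted p up to 0.107). Without the 3 libraries with unbroken VAL2 loci the calls of LEA14, AT2G23120 and XERO2 were lost (adjusted p = 0.219, 0.12 and 0.054). For ERD10 the interaction was 0.64 (adjusted p = 0.454). COR47, ERD10, ERD14 and HIRD11 all had lower means in val1 and in val2 than in WT. ERD10 stood at 0.35 of the WT mean in val1 and at 0.28 in val2, and COR47 at 0.69 and 0.69. ERD14 stood at 0.80 and 0.61 of the WT mean, and HIRD11 at 0.87 and 0.93. The difference between COR47 and ERD10 was not tested.

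Neighbouring members of the family were compared because 6 pairs have no other protein-coding gene between them. XERO1 and XERO2 lie next to each other on chromosome 3, where their loci in val1 val2 replicate 1 spanned 18941928 to 18942788 and 18940677 to 18941558 (TAIR10). XERO1 was listed at 0 in WT and averaged 89.9 ± 16.9 FPKM in val1 val2 (SD, n = 3), whereas XERO2 averaged 24.5 ± 8.18 FPKM in val1 val2 and 24.3 ± 7.61 in WT (SD, n = 3 each). AT2G23110 and AT2G23120, both of the PvLEA18 class, formed a pair of the same kind: AT2G23110 stood at 102, 36.6 and 24.4 FPKM in val1 val2 and was listed at 0 in WT, while AT2G23120 overlapped between val1 val2 and WT. In these 2 pairs the seed gene was present in val1 val2 and its vegetative neighbour did not differ from WT by the test. Against val1, however, XERO2 and AT2G23120 were called higher in val1 val2, by log2 changes of 0.99 and 0.98. Both of those calls were lost on leaving out some single libraries.

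**Figure D5:**
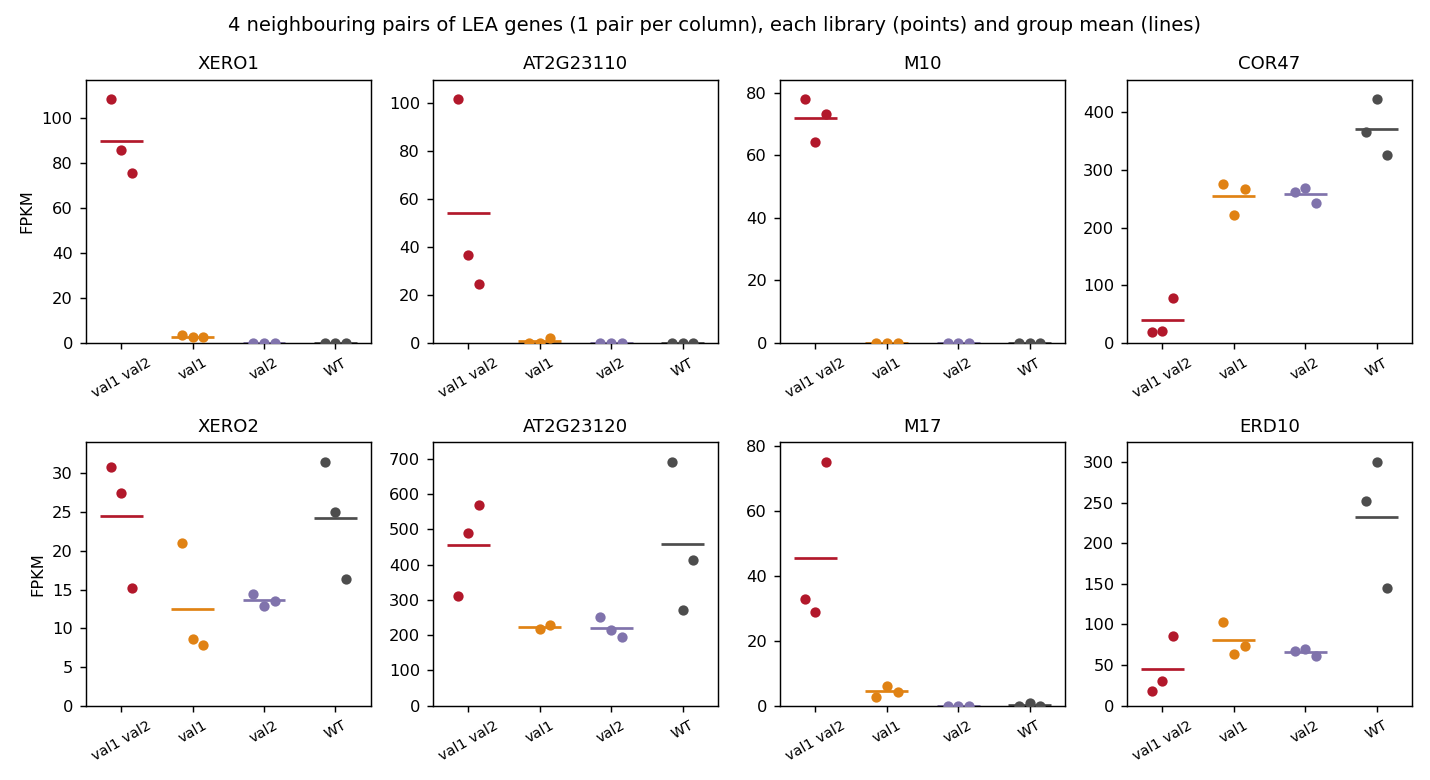
FPKM in each library (points, group mean as a line) of 4 pairs of neighbouring LEA genes, 1 pair per column. XERO1 and AT2G23110 are seen mainly in val1 val2, XERO2 and AT2G23120 in all genotypes, M10 and M17 both mainly in val1 val2, and COR47 and ERD10 are both highest in WT.

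Other pairs moved alike. COR47 and ERD10, on chromosome 1, both fell in val1 val2, and M10 and M17, on chromosome 2, were both present there, with M17 alone also listed in every val1 library. The pairs AT3G22490 with ECP31 and AT5G53260 with AT5G53270, all SMP members, stood at 0 to 2.64 FPKM in every library. Membership of a pair thus did not go with a shared change in every case.

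Regulators of both programs were set beside the family. Of 14 seed regulators 10 passed the filter, and 6 were called higher and 2 lower in val1 val2 than in WT. Of the 6, 5 passed through val1 val2 alone and had to differ (ABI3, FUS3, LEC1, ABI4 and DOG1), so their levels are a description. Of the other 5 regulators that passed, 1 was called higher and 2 lower, where 24.4% and 34.3% of all genes were. The master regulators ABI3, FUS3 and LEC1 averaged 38.5 ± 8.10, 78.8 ± 11.6 and 16.0 ± 2.41 FPKM in val1 val2 (SD, n = 3) and were listed at 0 in val1, val2 and WT. ABI5, a bZIP factor that acts on EM genes, averaged 15.1 ± 4.57 FPKM in val1 val2 and 2.99 ± 0.141 in WT (log2 change 1.97, adjusted p = 1.36e-05). BZIP53, a bZIP partner in seed maturation, fell, at 53.6 ± 9.33 FPKM in val1 val2 and 90.9 ± 5.27 in WT (-0.76, adjusted p = 0.000708). LEC1, FUS3 and ABI3 had no locus in val1, while DOG1 stood at 1.03 and 0.93 FPKM in val1 replicates 2 and 3. A locus that was not assembled is not shown to be absent. Any link of these regulators to XERO1, LEA18 and M17, which were listed in val1, was not tested.

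Of 10 regulators of vegetative cold and drought responses 9 passed the filter, and 2 were called higher and 4 lower in val1 val2 than in WT. The 4 that fell were ABF1, ABF2, ABF3 and ABF4, bZIP factors of the ABA response, with log2 changes of -0.81, -0.55, -1.03 and -1.03 (adjusted p = 0.000416, 0.0258, 0.000374 and 0.00361). ICE1, an activator of cold response genes, rose (1.20, adjusted p = 0.000526), while the cold response factor CBF2, at 4.35 ± 3.64 FPKM in val1 val2 and 0.589 ± 1.02 in WT, passed the filter through val1 val2 alone. Of 16 other stress genes 14 passed, with 8 called higher and 4 lower, and a median log2 change of 0.89. RD29A fell to 4.94 ± 1.48 FPKM in val1 val2, against 52.1 ± 20.2 in WT (-3.11, adjusted p = 1.23e-05), and RD29B averaged 5.41 ± 0.956 FPKM in val1 val2 and was listed at 0 in WT. RD29B too passed through val1 val2 alone. These counts stand beside 24.4% of all genes called higher and 34.3% called lower, and the difference between these lists and the vegetative LEA members was not tested.

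The 14 members without a test are accounted for as follows. No library listed a locus for 6 of them: ECP31, AT5G27980, AT3G53770, AT2G03740, AT2G03850 and AT4G13230. Another 5 were below the filter: AT4G36600, AT3G22490, AT5G53260 and AT5G53270, given above, and AT1G72100, which stood at 13.0 and 10.4 FPKM in val1 val2 replicates 1 and 2, had a locus shared with a neighbour in replicate 3 and was listed at 0 elsewhere. For the last 3, loci shared with other genes left too few values. AT4G39130, a dehydrin, stood at 112 FPKM in val1 val2 replicate 1, was merged with its neighbours in replicates 2 and 3 and had no locus in the other genotypes. Over AT2G33690, of the PvLEA18 class, a locus that also covers AT2G33685 stood at 44.0, 28.0 and 13.9 FPKM in val1 val2 and in no other library. UNE15 had too few values because most loci over it also cover AT4G13570. It stood at 0.75, 3.90 and 0 FPKM in val1 val2, at 2.84 FPKM in val2 replicate 3 and at 1.68 FPKM in WT replicate 1.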

How the data were processed

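RNA-seq of 12 seedling libraries was analysed from the tables that the authors deposited, 1 per library, which list the FPKM of each assembled locus with its position and confidence bounds, per the file headers. The submitters' processing notes name the build TAIR10 and the tools Cufflinks 2.2.1, TopHat2 2.1.1, MACS2 and Cuffdiff, without the step each served. Loci carry no gene names and were assigned by position to the protein-coding genes of TAIR10.1 in RefSeq; all 49 members matched. A gene's value is the sum over its loci of FPKM times the share of the gene's span covered. It is missing where a locus covers at least 50% of several genes and no single one makes up 75% of it (3935 genes in any library), or where a locus is absent while both other replicates reach 10 FPKM (215 values). A gene with no locus is listed at 0. FPKM are relative to each library's total, so abundant transcripts lower the others.

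On the log2 scale, with a pseudocount of 1 added to the deposited FPKM, all 12 libraries entered a single limma model (version 3.58.1, R 4.3.3) with a mean for each of the 4 genotypes and a trended prior. It covered 17836 genes that reached 1 FPKM in 3 or more libraries and had 2 or more values in every genotype (where a library was left out, the first count was the size of the smallest group). P-values are two-sided and Benjamini-Hochberg adjusted over all genes tested. Fold changes are on the FPKM + 1 scale and understate the change of low genes. The fit was tested on simulated data. Other steps ran in Python 3.11.15 (pandas 2.3.3, numpy 2.4.6, and matplotlib 3.10.9 for figures). Alternatives covered the pseudocount, the filter, the scaling, the way loci give gene values, the libraries in the fit, their weights, the prior and a replicate block. Ranges given over the alternatives do not include one, added after the data were seen, that leaves out the libraries with unbroken VAL2 loci. The members, their sets, the gene lists and the tests were chosen with earlier results of these data known. Named were, in each class, the members with the largest and smallest change in val1 val2 against WT, the 10 most abundant in val1 val2 and in WT, every member called lower in val1 val2, called with a log2 change of at least 1 in a single mutant or called with a negative interaction, and every member that no library lists; others named were chosen after their values were seen. The file names of val1 replicates 2 and 3 do not carry the replicate numbers of their titles, and the titles were followed. Sequences of the members were not used here.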

Additional observations from a re-analysis of the deposited data

Results flagged for a closer look

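The change from val1 to val1 val2 differed from the change from WT to val2 for a number of LEA members, by the interaction of the limma fit: 27 members had a positive interaction past the threshold and 3 a negative one, where 21.2% and 25.3% of all genes did. Of the 27, 17 passed the filter on low values through val1 val2 alone and had to show it. The other 18 members gave 10 positive and 3 negative ones. The 10 include XERO1, LEA18 and M17, which passed through val1 and val1 val2 alone. Among vegetative members the log2 interaction was 0.94 for LEA14, 1.57 for AT2G46140, 1.70 for DI21, 1.74 for XERO2 and 1.94 for AT2G23120, and it was -2.48 for COR47, -1.32 for AT1G02820 and -1.09 for HIRD11. Outside the tested values, the locus over AT2G33690 and AT2G33685 was assembled in the 3 val1 val2 libraries, at 13.9 FPKM or more, and in none of the other 9. Groups of 3 libraries were not searched for single libraries that stand apart.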

How the results depend on the processing

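No called member changed sign under the alternatives run, while the vegetative median of val1 val2 against val1, close to 0, ran from -0.14 to 0.21. The number of members called in val1 val2 against WT was 28 to 33 over 25 alternatives, where members that passed through val1 val2 alone had to differ. In val1 against WT it was 1 with a pseudocount of 5, 5 with only the groups compared, 7 with library weights and 9 with both unbroken-VAL1 libraries left out, and 3 to 8 with 1 library left out. In val2 against WT it was 1 with median-of-ratios scaling and 1 with quantile normalization, 2 with only the groups compared, 2 with library weights and 2 with both unbroken-VAL1 libraries left out, and 0 to 2 with 1 library left out. The median log2 change of seed members moved with the pseudocount, since most are listed at 0 outside val1 val2. With a pseudocount of 0.1 it was 9.06 against WT, 7.87 against val1, 9.06 against val2 and 7.87 for the interaction, and with a pseudocount of 5 it was 3.55 in each of these. It was 6.36 against WT and 6.36 against val2 with the largest locus as listed, and 4.60 against val1 and 4.60 for the interaction with no filter, which adds members of low level. In val1 against WT it was 2.11 with only the groups compared, where the filter keeps few seed members. The vegetative median with median-of-ratios scaling was -0.16 for val1 val2 against WT and -0.0032 against val2. The vegetative median of the interaction, 0.56 as reported, was 0.27 with a pseudocount of 5, 0.30 with a filter of 5 FPKM, 0.30 with quantile normalization, 0.30 with library weights, 0.23 with both unbroken-VAL1 libraries left out and 0.033 (without val1 val2 replicate 3) to 0.74 with 1 library left out. Taking the FPKM of the largest locus as listed, without the share covered, the seed members summed to 2037 FPKM in val1 val2 and 16.0 in val1, the vegetative members to 4243 in val1 val2, 5123 in val1, 5605 in val2 and 6256 in WT, and the seed and stress members to 738 in val1 val2 and 23.9 in val1. With median-of-ratios scaling the vegetative members summed to 3506 FPKM in val1 val2 and 3566 in val2. An alternative chosen after seeing the data left out the 3 libraries with unbroken VAL2 loci and so kept 1 val1 val2 library, which is assumed to vary like the other groups. It called 36 members in val1 val2 against WT, 6 of which have no test otherwise, since the filter then asks for 1 library, 6 in val1 and 1 in val2 against WT, and gave a vegetative median of -0.10 for the interaction. The cause of shifts not explained here was not tested.

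Same-numbered libraries did not deviate together (correlations of -0.0332 to 0.0771), so no pairing was seen in the values. Such correlations cannot show whether these samples were grown or prepared together, which the labels do not state. With the replicate block the members called were 29 in val1 val2 against WT, 4 in val1 and 0 in val2 against WT, 28 in val1 val2 against val1, 31 against val2 and 30 for the interaction. With 3 libraries a group and no read counts, values near 1 FPKM cannot be given an error from counting, and a locus that was not assembled is not shown to be absent.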
